A study of Bos taurus with 9 samples.

Results

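Homeobox and T-box genes code for transcription factors that lay out the body axis, the head, the limbs and the organs of the embryo. The 81 genes described here were those whose symbol named a HOX, PAX, TBX, LHX, DLX, NKX, EMX, MSX, ALX or OTX gene, a gene of the SIX3 family, GSC or EOMES, out of 17258 genes in the series, and no measured value entered that choice. All 81 had a row in the 8-cell files and 76 had a row in all 9 files. The other 5 (HOXB1, LHX5, NKX2-8, PAX2 and TBX4) were at a mean of 0.26 FPKM or less in 8-cell embryos and were not analysed in morulae. The morula counts of genes near 0 given below therefore leave these 5 out.

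The libraries were made from bovine (Bos taurus, Holstein) embryos produced by somatic cell nuclear transfer (SCNT), in which fetal fibroblasts from a female fetus supplied the nucleus for enucleated oocytes. There were 3 groups of 3 libraries. KDM6A morulae came from embryos injected with bovine wild-type KDM6A mRNA 1 h after activation, control morulae were not injected, and both were collected on day 5 of culture in pools of 5 embryos. The 8-cell embryos, labelled control, were taken by the submitters from another series and their pool size and culture time are not used here, so the stage of development cannot be told apart from the series of origin. No group received another mRNA, so the injection itself and KDM6A cannot be told apart either. Separate oocyte batches for the pools are not mentioned in the labels, and p-values therefore measure only the spread between these libraries, which may be technical.

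A homeodomain is a short DNA-binding fold shared by nearly all of these families, and the T-box of TBX genes and EOMES is an unrelated DNA-binding domain. In most tissues such genes are silent, and many are held so by polycomb complexes, which place the histone mark H3K27me3 over their promoters. KDM6A is a demethylase that removes this mark. HOX genes lie in clusters (HOXA to HOXD) in the order in which they are used along the body axis, and genes with the same number in different clusters are paralogs of one another. In bulk samples, fewer cells expressing a gene and less RNA per cell cannot be told apart.

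Values are FPKM, a measure of transcript level corrected for gene length and library size, so levels can be compared between genes. The read depth of each library is unknown, and 8923 to 9757 annotated genes per library reached 1 FPKM. The injected transcript checked the labels. KDM6A stood at 10.72, 13.86 and 10.74 FPKM in control morulae (replicates 1, 2 and 3, the order used throughout) and at 35.65, 87.58 and 79.44 in KDM6A morulae, with KDM6A replicate 1 the lowest of the injected pools. That library also correlated more closely with the 3 controls (r = 0.982 to 0.983 across 9777 genes) than with KDM6A replicates 2 and 3 (0.975 and 0.97). Oocyte transcripts went with the stage labels, at 3710 to 9030 FPKM summed in 8-cell embryos and 448, 20.1 and 113 in control morulae. BTG4 was the largest part of these sums, at means of 5910 and 158 FPKM. Of the oocyte markers, 7 were tested between these stages and 7 were called lower in control morulae. Of 3 pluripotency markers, POU5F1 averaged 8.4 FPKM in 8-cell embryos and 146 in control morulae, and SOX2 1.88 and 13.1. NANOG went the other way, at 86.8 and 42.4 FPKM.

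Most of these developmental regulators were low or silent in cloned embryos. Of the 76 genes with a value in every library, 44 had a mean of at least 1 FPKM in no group, and 12 were near 0, taken here as a mean under 0.1 FPKM, in all 3 groups. The number near 0 was 23 (30.3%) in 8-cell embryos, 32 (42.1%) in control morulae and 29 (38.2%) in KDM6A morulae. At least 1 FPKM was reached by 25 (32.9%), 20 (26.3%) and 18 (23.7%) genes in the same order, and at least 10 FPKM by 3, 3 and 2. Over all 16129 genes in the 9 files, 20.3% to 22.4% were near 0 and 56.7% to 59.7% reached 1 FPKM. Counted library by library, 13 to 28 of the 76 genes were listed at exactly 0, with the lowest count in control morula replicate 1 and the highest in control morula replicate 3.

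The genes near 0 in every group were spread over the families. They included HOXD3, HOXC12, EMX1, DLX3, LHX6, TBX5, TBX6, TBX19, TBX21, SIX6, PAX8 and HOXA13. TBX5, a regulator of heart and forelimb, averaged 0.05 FPKM in 8-cell embryos, 0.0367 in control morulae and 0.0867 in KDM6A morulae. PAX8, a thyroid and kidney regulator, was at 0 in all 8-cell libraries and reached at most 0.15 FPKM, in KDM6A replicate 3. None of the 12 exceeded 0.29 FPKM in any library.

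Homeobox genes outside the chosen families and forkhead genes were low as well. Of 60 such homeobox genes in all 9 files, 15 (25%) were near 0 in 8-cell embryos, 29 (48.3%) in control morulae and 29 (48.3%) in KDM6A morulae. Of 25 forkhead genes, the counts were 8, 8 and 10. The shares of low genes in the chosen families lay between those of the other homeobox list and of all genes in both morula groups, and these differences were not tested.

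**Figure D1:**
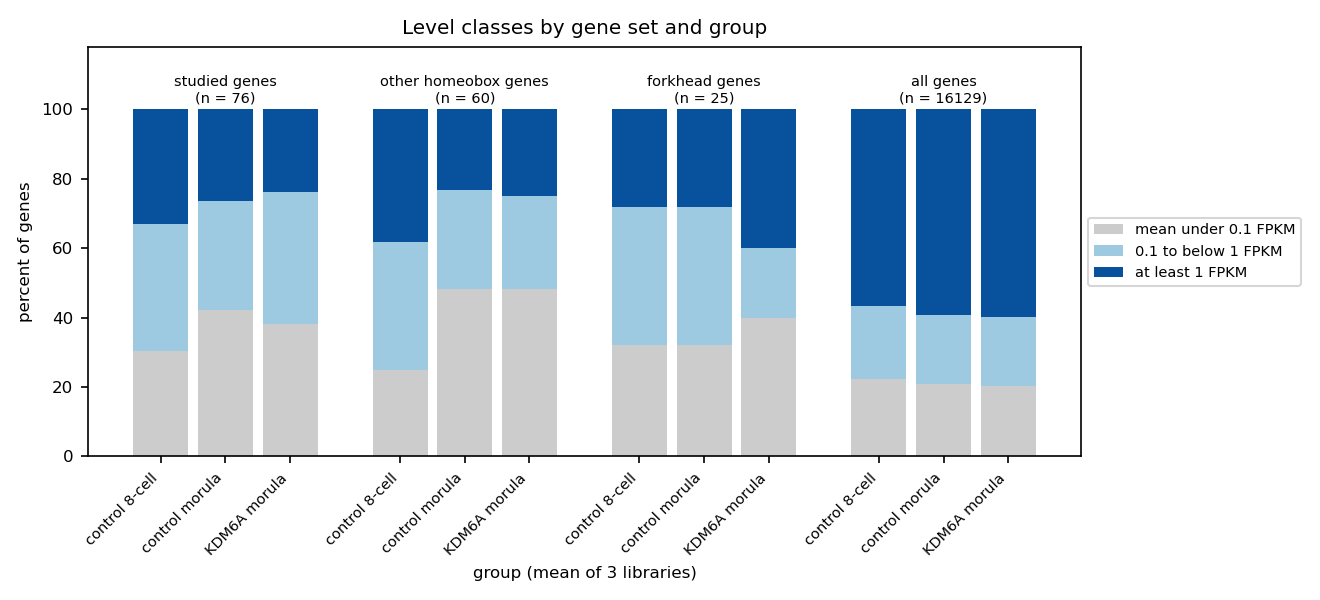
Stacked bars give the percent of genes in 3 level classes (group mean of 3 libraries under 0.1 FPKM, 0.1 to below 1 FPKM, at least 1 FPKM) for the 76 studied genes, 60 other homeobox genes, 25 forkhead genes and all 16129 genes. Among the studied genes the grey class is 30.3% in 8-cell embryos, 42.1% in control morulae and 38.2% in KDM6A morulae, each above the share over all genes.

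A total of 32 genes reached a mean of 1 FPKM in some group. Of these, 12 did so in all 3 groups, 11 in 8-cell embryos alone and 5 in both morula groups but not in 8-cell embryos. HOX genes made up 12 of the 32. A further 12 genes had their highest group mean between 0.5 and 1 FPKM, just under the level at which genes are described in full. Most of these had a higher mean at the 8-cell stage. For SIX3, HOXD10, HOXD11, HOXA2, HOXA3, LHX9 and TBX15, however, 8-cell and control morula libraries overlapped. SIX3, an eye and forebrain regulator, averaged 0.973 FPKM in 8-cell embryos, 0.0967 in control morulae and 0.08 in KDM6A morulae. HOXD10 averaged 0.913, 0.393 and 0.393 FPKM, and HOXD11 0.79, 0.0733 and 0.11. Their 8-cell libraries were at 0.18, 2.52 and 0.04 FPKM and at 0.13, 1.97 and 0.27, with replicate 2 far above the others. HOXA2 and HOXA3 averaged 0.593 and 0.78 FPKM in 8-cell embryos and at most 0.243 in morulae. DLX1, LHX9 and TBX15 averaged 0.58, 0.56 and 0.5 FPKM in 8-cell embryos and at most 0.0967 in morulae. EMX2, of forebrain and urogenital tract, averaged 0.347, 0.58 and 0.643 FPKM, and ALX4 0, 0.473 and 0.527. DLX4, a distal-less gene, averaged 0.09, 0.397 and 0.513 FPKM. None of the 12 was tested in any comparison.

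**Figure D2:**
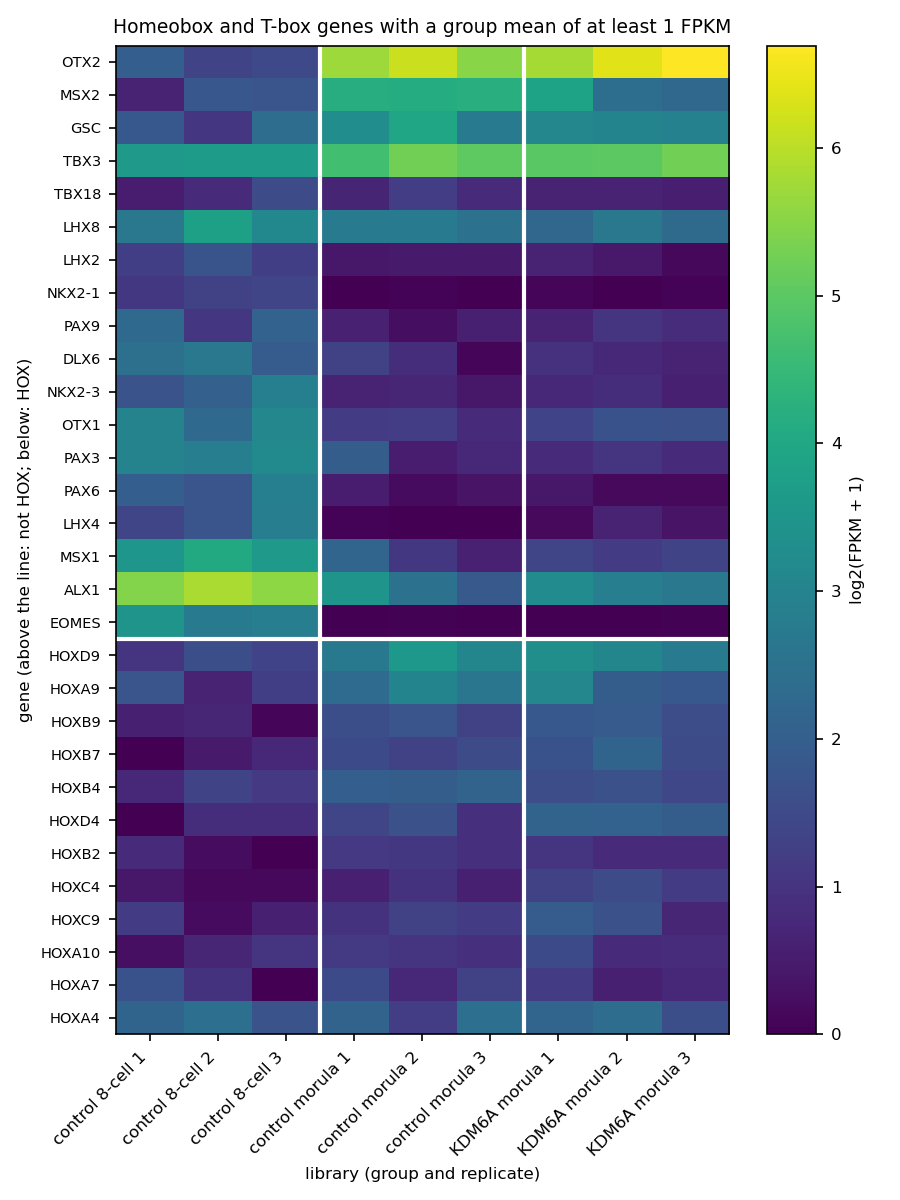
Each row is 1 of 30 of the 32 genes with a group mean of at least 1 FPKM and each column 1 of the 9 libraries, with colour giving log2(FPKM + 1). Non-HOX genes stand above the white line and HOX genes below it, sorted by the difference between control morula and 8-cell means: OTX2 reaches 102.39 FPKM in KDM6A morula replicate 3, and EOMES is bright only in the 8-cell columns.

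The set of active developmental regulators differed between the 8-cell and the morula stage. Differences were tested on log2(FPKM + 1) with limma, in genes at 1 FPKM or more in at least 3 of the 6 libraries, and a gene was called at a Benjamini-Hochberg adjusted p below 0.05 over all genes tested. Of 26 genes tested, 9 were higher and 12 lower in control morulae than in 8-cell embryos, where 42.7% of all 10048 tested genes were higher and 27.1% lower. All 5 HOX genes called were higher, while the genes of other families split into 4 higher and 12 lower. A gene high at a single stage passes the filter through that stage and then had to differ. This held for 9 of the 21 calls: HOXB7 and HOXB9 among the higher, and EOMES, PAX6, PAX9, LHX2, LHX4, NKX2-1 and NKX2-3 among the lower. That left 7 higher and 5 lower with at least 1 library at 1 FPKM in each stage. Over all 76 genes, with no filter, the median difference was -0.03 on the log2(FPKM + 1) scale, against 0.054 over all 16129 genes. The 10048 genes tested had a median of 0.347, which was 0.033 after quantile normalization, where 3516 genes were higher and 3412 lower in place of 4293 and 2719. The median of the studied genes was 0.08 for the 31 HOX genes and -0.162 for the other 45.

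OTX2 and TBX3 were the most abundant of these genes in morulae. OTX2 (ENSBTAG00000014741.4), a homeobox gene of the anterior embryo and of pluripotent cells, stood at 3, 1.61 and 1.77 FPKM in 8-cell embryos and at 51.79, 70.3 and 44.18 in control morulae. Every morula library was far above every 8-cell library, a 26.1-fold difference of means (log2 fold change 4.17, SE 0.267, limma adjusted p = 2.09e-06). OTX1 (ENSBTAG00000006760.4), its paralog in brain patterning, went the other way, from 7.02, 3.86 and 7.61 FPKM to 1.29, 1.33 and 0.78 (log2 fold change -1.71, SE 0.28, limma adjusted p = 0.000397). OTX2 therefore made up 18.9% to 29.9% of the summed OTX FPKM in 8-cell libraries and 97.2% to 98.3% in the 6 morula libraries.

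The MSX pair showed the same exchange of paralogs. MSX genes are repressors that act downstream of BMP signals in limb, tooth, skull and trophoblast. MSX2 (ENSBTAG00000013873.3) rose from 0.6, 2.5 and 2.4 FPKM in 8-cell embryos to 16.85, 16.72 and 17.36 in control morulae, 9.26-fold (log2 fold change 2.75, SE 0.32, limma adjusted p = 5.06e-05). MSX1 (ENSBTAG00000010875.3) fell from 10.43, 15.74 and 11.1 FPKM to 3.5, 1.14 and 0.53, 7.21-fold (log2 fold change -2.43, SE 0.381, limma adjusted p = 0.00031). In neither gene did the groups overlap. MSX2 accounted for 5.44% to 17.8% of summed MSX FPKM in 8-cell libraries and 82.8% to 97% in control morulae, and for 70% to 89.4% in KDM6A morulae. The exchange within each pair was noticed in the values and was not itself tested.

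The T-box genes EOMES and TBX3 also moved in opposite directions. EOMES (ENSBTAG00000016920.6), known for its role in trophoblast and in the primitive streak, was at 9.96, 5.71 and 6.26 FPKM in 8-cell embryos. It was listed at 0, 0.02 and 0 in control morulae and at 0, 0 and 0.03 in KDM6A morulae, so that all 6 morula libraries were at or next to 0 (log2 fold change for control morulae -3.01, SE 0.245, limma adjusted p = 7.08e-06). TBX3 (ENSBTAG00000021706.5), a T-box repressor also expressed in pluripotent cells, rose from 11, 11.97 and 11.74 FPKM to 24.3, 37.74 and 31.7 (2.7-fold, limma adjusted p = 0.00045). TBX18, a regulator of somites and heart, was at 1.03 ± 0.766 FPKM (SD, n = 3) in 8-cell embryos, 0.903 ± 0.371 in control morulae and 0.537 ± 0.0611 in KDM6A morulae, and was not tested. The other T-box genes with rows in all files, TBX5, TBX6, TBX15, TBX19, TBX20 and TBX21, had group means of at most 0.5 FPKM.

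GSC and ALX1 belong to the paired-like homeobox genes. GSC (ENSBTAG00000010407.3), which marks the organizer region of the gastrula, was at 2.56, 1.1 and 4.22 FPKM in 8-cell embryos and at 8.72, 14.33 and 5.66 in control morulae (3.64-fold, limma adjusted p = 0.00542). ALX1 (ENSBTAG00000014977.5), a regulator of face and skull mesenchyme, was the most abundant of all studied genes at the 8-cell stage, with 42.88, 56.56 and 45.71 FPKM. It fell 8.39-fold, to 9.94, 4.73 and 2.63 in control morulae (log2 fold change -3.01, SE 0.361, limma adjusted p = 6.12e-05). Its relative ALX4 was listed at 0 in all 8-cell libraries and stood at 0.65, 0.19 and 0.58 FPKM in control morulae, too low to be tested.

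PAX, LHX, NKX and DLX genes, which direct organ and neural fates, were on the falling side wherever they were called. However, PAX6, PAX9, LHX2, LHX4, NKX2-1 and NKX2-3 passed the filter through the 8-cell libraries alone, so their calls could only be lower. PAX3 and DLX6 also had a control morula library above 1 FPKM. PAX3, of neural crest and muscle precursors, stood at 6.9, 6.24 and 8.15 FPKM in 8-cell embryos and at 2.96, 0.44 and 0.71 in control morulae (limma adjusted p = 0.000998), with control replicate 1 the highest of the morulae. PAX6, the eye and forebrain regulator, went from 2.97, 2.41 and 6.46 FPKM to 0.45, 0.15 and 0.28 (limma adjusted p = 0.000378). PAX9, of pharyngeal pouches and teeth, went from 3.88, 1.07 and 3.33 to 0.53, 0.18 and 0.5 (limma adjusted p = 0.00401).

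Among the LIM homeobox genes, LHX4, a pituitary and motor neuron regulator, fell from 1.66, 2.37 and 6.29 FPKM to 0.04, 0 and 0 (limma adjusted p = 0.000492). LHX2, of forebrain and limb, fell from 1.38, 2.35 and 1.37 FPKM to 0.35, 0.4 and 0.39 (limma adjusted p = 0.00262). LHX8, known from oocytes and forebrain, showed overlapping groups, at 5.43, 12.89 and 7.76 FPKM in 8-cell embryos and 5.87, 5.67 and 4.72 in control morulae (limma adjusted p = 0.144). It was called lower after quantile normalization (limma adjusted p = 0.0221) and without 8-cell replicate 1 (0.0325). LHX8 was the single LHX gene with a mean above 1 FPKM in morulae.

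NKX2-1, of lung, thyroid and forebrain, was at 1.11, 1.48 and 1.64 FPKM in 8-cell embryos and at 0, 0.04 and 0 in control morulae (limma adjusted p = 0.000217). NKX2-3, a gut and spleen gene, fell from 2.3, 3.18 and 6.36 FPKM to 0.57, 0.65 and 0.34 (limma adjusted p = 0.000866). In both NKX genes every 8-cell library was above every control morula. DLX6, of the branchial arches, fell from 4.58, 5.39 and 2.86 FPKM to 1.44, 0.84 and 0.08 (limma adjusted p = 0.00157).

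**Figure D3:**
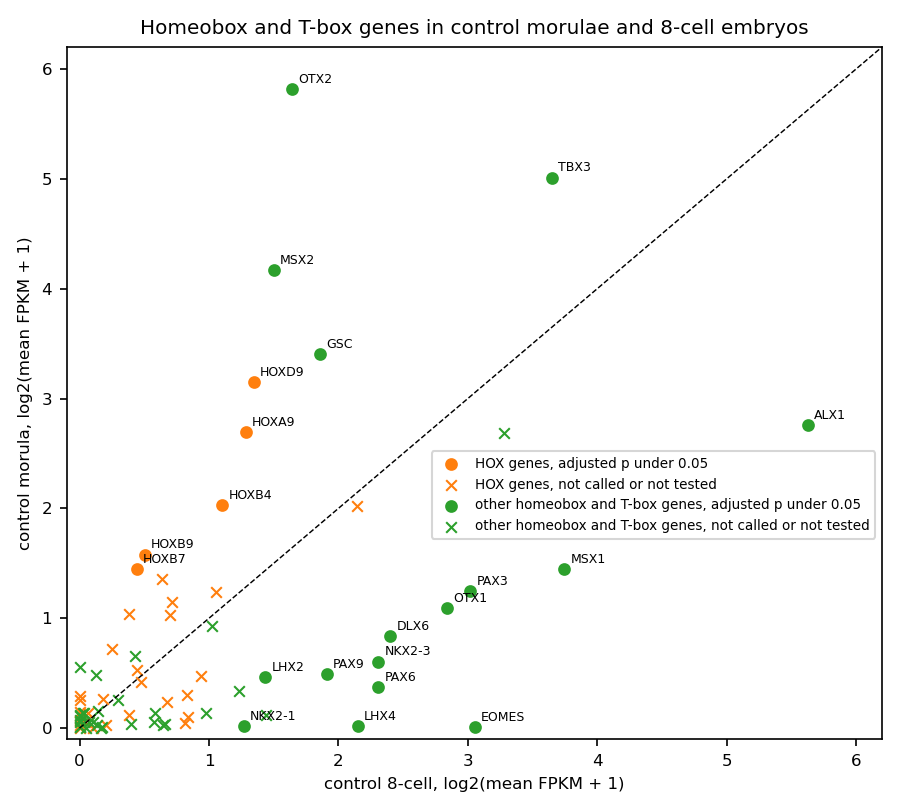
Each point is 1 of the 76 genes, placed by log2(mean FPKM + 1) in control 8-cell embryos (x axis) and control morulae (y axis), with circles for genes called by limma and crosses for the rest. The dashed line marks equal levels: the 5 called HOX genes lie above it, and 12 of the 16 called genes of other families lie below it.

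Among the 31 HOX genes in all files, transcript was concentrated in paralogous groups 4 and 9. Of the 9 HOX genes tested, 5 rose from 8-cell embryos to control morulae. Over all 10048 genes tested, 42.7% rose, and HOXB7 and HOXB9 passed the filter through morulae alone. Summed over the 31 HOX genes in all files, the level was 13.6 to 21.2 FPKM in 8-cell libraries, 30.5 to 36.3 in control morulae and 25.3 to 41.7 in KDM6A morulae, a sum that was not tested. Not every group had a higher summed mean in control morulae: group 3 was at 1.17 FPKM in 8-cell embryos and 0.717 in control morulae, group 11 at 0.79 and 0.183, and group 13 at 0.767 and 0.42. Groups 4 and 9, with 4 genes each, held 49.1% to 59.4% of that sum in 8-cell libraries and 69.7% to 79.9% in the 6 morula libraries. All 4 genes of group 9 averaged at least 1 FPKM in control morulae, as did 3 of the 4 genes of group 4. None of the genes with a row in groups 3, 5, 6, 8, 11, 12 or 13 reached that mean in any of the 3 sets of libraries. Those paralogous groups had only 1 to 3 genes with a row in all files, and groups 8 and 12 had 1 each (HOXC8 and HOXC12). Only groups 4 and 9 had 4, so the sums of the groups cover unequal numbers of genes. Adjacent genes of a cluster therefore differed: HOXA9 averaged 5.46 FPKM in control morulae and HOXA10 1.04, and HOXD9 averaged 7.89 and HOXD10 0.393.

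HOXD9 (ENSBTAG00000016033.4) was the most abundant HOX gene in control morulae. It rose from 1.04, 2.03 and 1.56 FPKM in 8-cell embryos to 5.55, 10.76 and 7.36, 5.11-fold (log2 fold change 1.78, SE 0.286, limma adjusted p = 0.000357). HOXA9 (ENSBTAG00000011476.3) rose from 2.38, 0.55 and 1.38 FPKM to 4.1, 7.08 and 5.21 (limma adjusted p = 0.00244). HOXB9 rose from 0.5, 0.66 and 0.09 to 2.07, 2.39 and 1.51 (limma adjusted p = 0.0021). The fourth gene of the group, HOXC9, overlapped between stages, at 1.26, 0.15 and 0.51 FPKM and at 0.96, 1.48 and 1.22 (limma adjusted p = 0.124).

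Toward the anterior end of the clusters, HOXB4 (ENSBTAG00000039599.3) rose from 0.7, 1.59 and 1.15 FPKM to 3.01, 2.91 and 3.35, and HOXB7 rose from 0, 0.39 and 0.68 to 1.82, 1.49 and 1.87 (limma adjusted p = 0.0045 and 0.00279). Both calls were lost after quantile normalization (limma adjusted p = 0.0725 and 0.0695). HOXA4 was the HOX gene with the highest mean at the 8-cell stage, at 3.45, 4.48 and 2.3 FPKM, and control morulae overlapped with them at 3.39, 1.33 and 4.43 (limma adjusted p = 0.661). HOXA7 stood at 2.24, 0.99 and 0 FPKM and at 1.83, 0.72 and 1.51 (limma adjusted p = 0.5). HOXA10 stood at 0.21, 0.64 and 1.01 FPKM and at 1.18, 1.02 and 0.91 (limma adjusted p = 0.184). HOXB2 averaged 0.303 ± 0.388 FPKM in 8-cell embryos, 1.06 ± 0.145 in control morulae and 0.84 ± 0.139 in KDM6A morulae (SD, n = 3) and was not tested between stages. The differences of HOXA7, HOXA10 and HOXC9 turned sign, to -0.049, -0.092 and -0.0017 on the log2 scale, after quantile normalization.

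HOX genes are also active in fibroblasts, the donor cell type. Of 14 fibroblast markers, 4 averaged at least 1 FPKM in control morulae, among them the matrix gene DCN at 15.8 FPKM, and TAGLN was at 0 in all 3 control morulae. The summed level of the list was 19.9, 76.5 and 25.2 FPKM in 8-cell libraries, 20.3, 32.8 and 14 in control morulae, and 35.1, 18.4 and 11.6 in KDM6A morulae, so the 3 groups overlapped. In each group the library with the most fibroblast marker transcript (8-cell replicate 2, control morula replicate 2 and KDM6A replicate 1) was also the one with the highest HOX sum. In those 2 morula libraries most of the marker sum came from DCN alone, at 27.06 and 23.74 FPKM. Between groups the order was not the same. 8-cell replicate 2 had the highest marker sum of all 9 libraries, while its HOX sum of 21.2 FPKM lay below that of every morula library. The part of such cells in HOX levels was not tested. Of 6 markers tested between control morulae and 8-cell embryos, 1 rose (THY1) and 3 fell (COL5A1, LUM and FBN1).

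**Figure D4:**
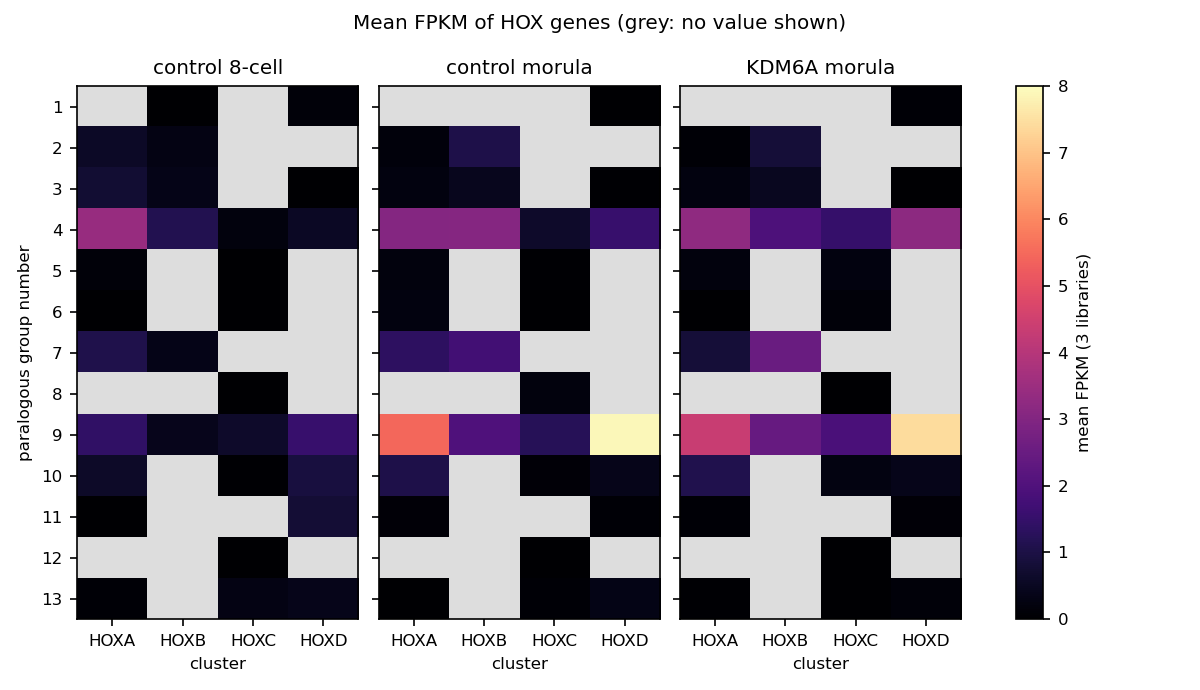
Colour gives the mean FPKM of 3 libraries for each HOX gene, by cluster (columns) and paralogous group number (rows), in control 8-cell embryos, control morulae and KDM6A morulae. Grey cells have no value shown, and the bright rows are groups 4 and 9, with HOXD9 at 7.89 FPKM in control morulae.

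No homeobox or T-box gene was called between KDM6A and control morulae, the comparison of injected with uninjected embryos. Of 20 genes tested, 0 were higher and 0 lower, where 0.123% of all 9777 tested genes were higher and 0.0409% lower in limma. At an unadjusted p under 0.05 there were 4 (20%), against 12.7% of all genes tested. Of the 32 genes near 0 in control morulae, 0 reached 1 FPKM in KDM6A morulae, and the highest of them there was LHX4 at a mean of 0.33 FPKM. In all, 7 genes left the near-0 class in KDM6A morulae and 4 entered it. Over the 76 genes the median difference was 0.024 on the log2(FPKM + 1) scale, against 0.004 over all 16713 genes of the morula files. These results do not show that levels were equal, since only 3 libraries stood on each side.

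MSX2 showed the largest difference of the 20. It was at 16.85, 16.72 and 17.36 FPKM in control morulae and at 13.86, 4.37 and 3.68 in KDM6A morulae (17 ± 0.338 and 7.3 ± 5.69, SD, n = 3). All 3 injected pools lay below all 3 controls, but replicate 1 was close to the controls and replicates 2 and 3 were not. This was a log2 difference of -1.32 (SE 0.369, limma adjusted p = 0.251). An exact permutation test on both sides returned p = 0.1, the smallest possible with 3 against 3. Without KDM6A replicate 1, the pool with the least KDM6A transcript, the log2 fold change was -1.84 and MSX2 was called (limma adjusted p = 0.00295). In that fit MSX2 was the single call among 16 of these genes, while 3.8% of 9596 tested genes were called higher and 3.75% lower. Trophectoderm, the outer cells of the blastocyst, gives rise to the placenta. Of 6 markers of this lineage, 5 had lower means in KDM6A morulae and 0 were called, with a median log2 difference of -0.711 against -0.012 over all genes tested. GATA2 stood at 2.9 ± 0.413 FPKM without injection against 0.643 ± 0.248 with it, and GATA3 at 7.65 ± 0.66 and 2.73 ± 0.501 (SD, n = 3, limma adjusted p = 0.0601 and 0.0561). KRT8 (16.9 and 10 FPKM), KRT18 (46.6 and 34.2) and TEAD4 (45.1 and 31.1) also had lower means (limma adjusted p = 0.392, 0.579 and 0.32), while TFAP2C was at 167 and 173 (0.907). All 6 markers summed to 261, 281 and 315 FPKM in the control pools and to 284, 236 and 233 in the KDM6A pools. TFAP2C, the only marker with a higher mean, was the most abundant of the 6. In the sum of all 6, KDM6A replicate 1 lay within the control range. The part of such markers in the MSX2 difference was not tested.

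HOX genes of group 4 differed in sign. HOXD4 (ENSBTAG00000039581.1) was at 1.66, 2.14 and 0.88 FPKM in control morulae and at 3.37, 3.32 and 2.95 in KDM6A morulae. HOXC4 (ENSBTAG00000003304.4) was at 0.49, 0.96 and 0.49 without injection and at 1.43, 1.87 and 1.29 in KDM6A morulae. In both, each injected pool was above each control, and the log2 differences were 0.75 (SE 0.238, limma adjusted p = 0.283) for HOXD4 and 0.63 (SE 0.22, limma adjusted p = 0.303) for HOXC4. HOXC4 passed the filter through the injected pools alone. HOXB4 lay the other way without overlap, at 3.01, 2.91 and 3.35 FPKM in uninjected pools and 2.01, 2.16 and 1.67 in KDM6A morulae (log2 fold change -0.475, SE 0.202, limma adjusted p = 0.368). HOXA4 overlapped, at 3.39, 1.33 and 4.43 and at 3.57, 4.24 and 2.03 (limma adjusted p = 0.9).

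The OTX genes had higher means in KDM6A morulae, without a call. OTX1 was at 1.29, 1.33 and 0.78 FPKM without injection and at 1.55, 2.21 and 2.18 in KDM6A morulae, with no overlap (limma adjusted p = 0.395). OTX2 was at 51.79, 70.3 and 44.18 and at 54.64, 83.02 and 102.39 (limma adjusted p = 0.424). For OTX2, KDM6A replicate 1 lay within the control range and replicates 2 and 3 lay above it. For HOXA9, KDM6A replicate 1 was above all controls and replicates 2 and 3 below them, with 4.1, 7.08 and 5.21 FPKM in uninjected morulae and 7.53, 2.93 and 2.6 in injected ones (limma adjusted p = 0.67).

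Counting groups that did not overlap, 3 of the 20 tested genes were higher (HOXD4, HOXC4 and OTX1) and 2 lower (MSX2 and HOXB4) in all KDM6A pools. The background among the 9777 genes was 7.1% higher and 8.61% lower. With no filter, 6 of 76 genes (7.89%) were higher and 4 (5.26%) lower without overlap, against 6.36% and 6.21% of 16713 genes, so that the shares were near the background. The additional genes were LHX4 (0.04, 0 and 0 FPKM in controls, 0.12, 0.59 and 0.28 in KDM6A morulae), PAX9 (0.53, 0.18 and 0.5, then 0.55, 1.04 and 0.79) and HOXC6 (0 in all controls, then 0.33, 0.06 and 0.06) on the higher side. TBX18 (0.61, 1.32 and 0.78, then 0.55, 0.59 and 0.47) and HOXA6 (0.06, 0.56 and 0.06, then 0 in all KDM6A pools) were on the lower side.

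**Figure D5:**
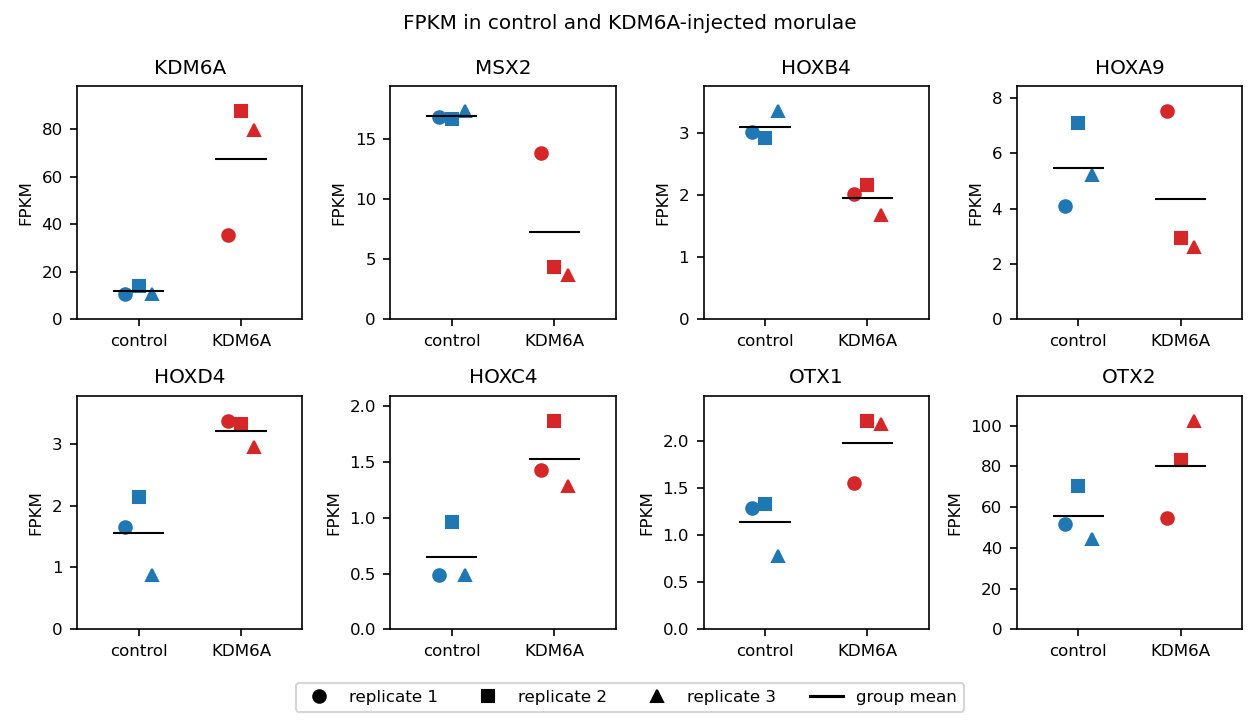
Each panel gives the FPKM of 1 gene in the 3 control and the 3 KDM6A-injected morula libraries, with a marker shape per replicate and a line at the group mean. KDM6A replicate 1 (circle) holds the least KDM6A transcript of the injected pools, 35.65 FPKM, and lies nearer to the controls than replicates 2 and 3 for MSX2 and OTX2.

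The other tested genes had overlapping groups. TBX3 stood at 24.3, 37.74 and 31.7 FPKM in uninjected morulae and 30.33, 31.1 and 37.45 in KDM6A morulae. HOXD9 stood at 5.55, 10.76 and 7.36 and at 8.95, 7.37 and 5.93, and GSC at 8.72, 14.33 and 5.66 and at 7.52, 7.07 and 6.67. LHX8 stood at 5.87, 5.67 and 4.72 and at 3.62, 5.35 and 3.94. ALX1 was at 9.94, 4.73 and 2.63 without injection and at 8.37, 6.21 and 5.46 in KDM6A morulae, and MSX1 at 3.5, 1.14 and 0.53 and at 1.64, 1.28 and 1.58. For both, control replicate 1 was the highest library. The limma adjusted p of these 6 genes was between 0.596 and 0.981. HOXB7, HOXB9, HOXC9, HOXA7, HOXA10 and HOXB2 had limma adjusted p from 0.543 to 0.975.

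Against 8-cell embryos, KDM6A morulae showed 10 genes higher and 13 lower of 26 tested, where 41.1% of all 10024 tested genes were higher and 25.6% lower. After quantile normalization 3313 genes were higher and 3247 lower, in place of 4121 and 2568. This comparison shares its 8-cell libraries with the one of control morulae. Among the calls, 11 passed the filter through a single group. OTX2 had a log2 fold change of 4.68 (4.17 in control morulae), TBX3 1.43 (1.34), EOMES -3.01 (-3.01) and ALX1 -2.69 (-3.01). MSX2 stood 1.43 higher on the log2 scale (limma adjusted p = 0.0171) against 2.75 in controls, and lost its call without KDM6A replicate 1 or 8-cell replicate 1, after quantile normalization (0.0757) and with no filter (0.0938). HOXD4 and HOXC4 were tested in this comparison and not in that of the controls, at 1.49 and 1.09 on the log2 scale (limma adjusted p = 0.000783 and 0.000982). Both passed the filter through the KDM6A pools alone, so their calls could only be higher. For both genes every control morula was also above every 8-cell library, with means 2.8-fold and 3.4-fold higher. HOXB4, at 0.47, was not called (limma adjusted p = 0.106). LHX8 was called lower (log2 difference -0.81, limma adjusted p = 0.0438), and its call was lost without any 1 KDM6A replicate and without 8-cell replicates 2 or 3, with a pseudocount of 0.1 (0.0518) and with no filter (0.0992). The calls of HOXA9 and PAX9 were lost without KDM6A replicate 1, those of HOXA9 also without 8-cell replicates 2 or 3, and those of PAX9 also without KDM6A replicate 3 or 8-cell replicates 1 or 3. With no filter both calls were lost (limma adjusted p = 0.111 for HOXA9 and 0.0794 for PAX9), and after quantile normalization that of HOXA9 (log2 difference 0.65, limma adjusted p = 0.162).

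Partners and upstream genes of these factors were taken from set lists, with values as mean ± SD (n = 3) from 8-cell embryos to control morulae. Of all genes tested between these stages, 42.7% rose and 27.1% fell, with a median log2 difference of 0.347, and list medians are on the same scale. Of 5 tested TALE homeobox genes, which code for DNA-binding partners of HOX proteins, 0 were called between KDM6A and control morulae. Between control morulae and 8-cell embryos, 0 of 6 rose and 2 fell (median -0.329). PBX3 fell from 28.2 ± 7.67 to 8.22 ± 1.51 FPKM and MEIS1 from 2.69 ± 0.201 to 0.303 ± 0.206 FPKM. Of 3 tested partners of SIX3-family proteins, 0 rose and 2 fell (median -1.52), EYA3 from 19.4 ± 5.54 to 5.99 ± 1.22 FPKM and EYA2 from 3.19 ± 1.6 to 0.193 ± 0.0503 FPKM. Among 7 partners of LIM homeodomain proteins (median 0.206), LMO1 rose from 2.03 ± 0.461 to 11.7 ± 2.02 FPKM and 3 fell, LMO3 from 9.55 ± 4.76 to 0.243 ± 0.212 FPKM, LMO4 from 53.5 ± 15.2 to 26.1 ± 1.06 FPKM and SSBP2 from 6.71 ± 2.34 to 2.32 ± 1.23 FPKM. Between KDM6A and control morulae, 0 of 2 partners of SIX3-family proteins and 0 of 6 LIM partners were called.

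Retinoic acid and NODAL, BMP and WNT signals are textbook inducers of HOX and T-box genes. Of 8 retinoic acid pathway genes tested between stages, 3 rose and 3 fell (median 0.049). The synthetic enzyme ALDH1A1 rose from 3.13 ± 0.95 to 17.6 ± 3.25 FPKM. The degrading enzyme CYP26A1 fell from 20.2 ± 5.49 to 3.32 ± 1.49 FPKM and another synthetic enzyme, ALDH1A2, from 2.42 ± 0.789 to 0.0533 ± 0.0924 FPKM. In KDM6A morulae 0 of 7 were called. The smallest p belonged to CRABP2, a retinoic acid carrier, at 4.34 ± 3.15 FPKM in control and 13.8 ± 4.5 in KDM6A morulae (limma adjusted p = 0.156). ALDH1A1 was at 17.6 ± 3.25 and 8.74 ± 2.11 FPKM (limma adjusted p = 0.184).

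Of 11 NODAL, BMP and WNT genes tested between stages, 5 rose and 2 fell (median 0.383), which is near the shares and the median over all genes. The BMP transducer SMAD1 rose from 0.707 ± 0.318 to 6.12 ± 0.783 FPKM and the shared partner SMAD4 from 3.44 ± 0.295 to 13.9 ± 2.26 FPKM, and SMAD3 fell from 1.33 ± 0.267 to 0.0667 ± 0.0462 FPKM. In KDM6A morulae 0 of 10 were called, with SMAD1 at 6.12 ± 0.783 and 3.36 ± 0.759 FPKM (limma adjusted p = 0.281).

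Homeobox genes outside the chosen families gave 3 rises and 8 falls of 19 tested between stages (median -0.564), and 0 of 15 were called between KDM6A and control morulae. ZFHX4 fell from 20.5 ± 7.33 to 0.0267 ± 0.00577 FPKM and ISL1 from 4.75 ± 1.69 to 1.03 ± 0.0551 FPKM, and HOPX rose from 0 ± 0 to 1.98 ± 0.302 FPKM. MGA, a T-box protein of a repressive polycomb complex, fell from 11.7 ± 3 to 5.69 ± 0.555 FPKM. The H3K27 list held a single call in KDM6A morulae, KDM6A itself (log2 difference 2.33, limma adjusted p = 0.0147), of 10 tested. Between stages it gave 2 rises and 5 falls (median -0.576), with JARID2 rising from 4.4 ± 0.838 to 19.6 ± 4.93 FPKM and SUZ12 falling from 77.2 ± 10.3 to 28.4 ± 4.66 FPKM.

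Some values are uncertain because genes lie on top of each other. In RefSeq annotation of the ARS-UCD2.0 assembly, HOXA4 overlaps HOXA3, HOXB4 overlaps HOXB3, HOXD4 overlaps HOXD3 and a microRNA gene, HOXB9 overlaps HOXB8, and PAX9 overlaps SLC25A21. HOXA7, LHX2 and PAX3 each overlap 1 further annotated gene. How reads in such stretches were assigned, and whether strand was used, remains not given in the sources used here. OTX1, OTX2, MSX1, MSX2, EOMES, TBX3, GSC, ALX1, HOXA9 and HOXD9 overlap no other gene in that annotation.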

How the data were processed

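RNA was sequenced from 9 libraries in 3 groups of 3. The deposited values are FPKM, per the file headers, and the authors rounded them to 2 decimals. The tools named in the submitters' processing notes were RSEM 1.2.12, Bowtie2 2.2.5, HISAT 0.1.6, StringTie 1.0.4 and bcl2fastq 2.16, with genome build UMD3.1. The role of each was not given in the sources used here. Read depth is unknown, so no counting intervals are given. No row of the 6 morula files is at 0 in all 6, whereas 2065 rows of the 8-cell files are at 0 in all 3. The 3038 rows of control morula replicate 1 without a gene identifier were not used.

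Files were joined by gene identifier with Python 3.11.15 and pandas 2.3.3. The test was that of limma (3.58.1, R 4.3.3) applied to log2(FPKM + 1), using group means, a trended prior variance and the 6 libraries compared. A fold change on this scale understates the change of low genes, while an "x-fold" difference compares mean FPKM directly. Genes at 1 FPKM or more in at least 3 of the 6 libraries were tested, with Benjamini-Hochberg adjustment over all of them. The script was tested on simulated data with known changes. Named with their values are genes with a mean of at least 1 FPKM in some group, in full for the 30 highest and by means for the other 2, those from 0.5 to 1 FPKM as just outside, and up to 4 genes per fixed list. A few of these genes are not reported here. The genes, lists and tests were chosen with earlier results of these data known. A list of 11 PRD-like genome activation genes had 1 row, CRX, at a mean near 0. Cumulus markers summed to 15.3 to 26 FPKM in 8-cell libraries and 2.76 to 6.05 in morulae, and primitive endoderm markers to 35.6 to 49.2 and 16.8 to 41.9. Figures were drawn with matplotlib 3.10.9.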

Additional observations from a re-analysis of the deposited data

How the results depend on the processing

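The settings changed were the pseudocount (0.1 or 0.5), the filter (none or 0.5 FPKM), the scale (TPM, quantile or median-of-ratios), the libraries fitted together (all 9), a replicate block and each replicate left out. Between KDM6A and control morulae 0 of these genes were called under each alternative, except for 1 (MSX2) without KDM6A replicate 1, so the range over replicates left out was 0 to 1. Calls over all genes, 16 in the report's fit, were 0 with no filter, 10 with all 9 libraries, 24 as TPM, 28 with quantile normalization, 1 with the replicate block and 1 to 725 with a replicate left out (725 without KDM6A replicate 1, 8 and 3 without control replicates 2 and 3, 3 and 1 without KDM6A replicates 2 and 3). Between KDM6A and control morulae, deviations from the group mean correlated at r = -0.217, -0.242 and 0.16 for equal replicate numbers 1, 2 and 3. For unequal numbers r was -0.197 to 0.31, so these values cannot settle whether the numbers pair the samples. The block moved no count of homeobox and T-box calls by over 1.5 times. Between control morulae and 8-cell embryos, 14 to 19 of these genes were called with a replicate left out, and between KDM6A morulae and 8-cell embryos 13 to 18, against 23. With an 8-cell library removed, a gene above 1 FPKM in 8-cell embryos alone no longer passes the filter.

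Signs turned only for genes with small differences and no call. Between KDM6A and control morulae these were HOXD9 on the TPM scale (0.0040) and, with a replicate left out, TBX3 (-0.074 to 0.23), HOXA4 (-0.23 to 0.38), GSC (-0.60 to 0.0060), MSX1 (-0.31 to 0.46), HOXD9 (-0.25 to 0.17), ALX1 (-0.062 to 0.73) and HOXA10 (-0.022 to 0.14). Between control morulae and 8-cell embryos they were HOXA7 (-0.049), HOXC9 (-0.0017) and HOXA10 (-0.092) after quantile normalization, and HOXA4 (-0.43 to 0.18) and HOXA7 (-0.14 to 0.52) with a replicate left out. For KDM6A morulae and 8-cell embryos it was HOXA4 (-0.24 to 0.18) with a replicate left out. With a mean under 0.5 FPKM counted as near 0, the counts were 39, 51 and 48 in 8-cell embryos, control morulae and KDM6A morulae, and 28 genes reached 0.5 FPKM in KDM6A morulae. The cause of these changes was not tested.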
